A study of Mus musculus with 9 samples.

Results

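Glutathione peroxidases, superoxide dismutases and catalase are enzymes that remove reactive oxygen species. The genes followed were 9, namely Sod1, Sod2, Sod3, Cat, Gpx1, Gpx3, Gpx4, Gpx7 and Gpx8, out of 22180 genes with a value on the arrays. They were listed by name with earlier results of these arrays known, and Gpx3 was chosen by its log2 values, which were lower in hindlimb than in shoulder and forelimb arrays. That contrast is therefore given for all 9 genes as values without a test. Each of the 9 genes was measured by 1 probe set assigned to that gene alone.

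The study hybridised total RNA of 9 skeletal muscles to GeneChip Mouse Gene 2.0 ST arrays, 1 array per muscle, and the animals were male C57BL/6J mice at an age of 12 weeks. Hindlimb muscles were the soleus, gastrocnemius, tibialis anterior and rectus femoris (4 arrays). Shoulder and forelimb muscles were the trapezius, supraspinatus and triceps (3 arrays), and head muscles were the masseter and digastric (2 arrays). The labels name each muscle and no treatment or genetic change, and the regions were assigned from general anatomy. The labels do not say whether RNA of several animals was combined, and every SD below is a spread between different muscles of a region, in which muscle, animal and array cannot be told apart. All values are deposited log2 expression values, so that a difference of 1 is a 2-fold difference. The arrays of 3 muscles, the triceps, rectus femoris and gastrocnemius, had a narrower range of values, with an SD over probe sets of 1.919 to 1.957 against 2.033 to 2.077 in the other 6 arrays. Differences are therefore also given for the 6 arrays of wider range, 2 from each region. In the 3 arrays of narrower range the triceps is the only shoulder and forelimb array, and no head array is among them. The muscle markers (Acta1, Ckm, Ttn and others) averaged 11.95 to 12.21 on every array. Markers of slow fibres averaged 10.40 in the soleus and 4.85 to 7.33 elsewhere, and white adipocyte markers averaged 7.17 in the trapezius and 4.77 to 5.55 elsewhere. Salivary gland markers, 4 of 5 of which averaged under the array median, summed to 4.61 to 4.88 in hindlimb, 4.84 to 5.12 in shoulder and forelimb and 6.10 to 7.58 in head arrays, and their part in the head contrasts was not tested. In whole muscle, fewer cells of a type and less RNA per cell cannot be told apart.

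Superoxide, made by the mitochondrial respiratory chain and by oxidases, is turned into hydrogen peroxide by superoxide dismutases. Sod1 encodes the copper and zinc enzyme of the cytosol, Sod2 the manganese enzyme of the mitochondrial matrix, and Sod3 the secreted copper and zinc enzyme that binds to the extracellular matrix. Hydrogen peroxide is then removed by catalase, a haem enzyme of peroxisomes, and by glutathione peroxidases. Among the latter, Gpx1, Gpx3 and Gpx4 spend reduced glutathione. Gpx1 is cytosolic and mitochondrial, Gpx3 is secreted and is the form found in plasma, and Gpx4 reduces peroxides of membrane lipids. These 3 enzymes carry selenocysteine at the active site. Gpx7 and Gpx8 lie in the endoplasmic reticulum and carry cysteine in its place. Oxidative muscle is known to be rich in mitochondria and in antioxidant enzymes.

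Start regions of 8 of the 9 genes were found in the RefSeq promoter table of build GRCm38.p6, and Sod3 was not matched. Those of Gpx3, Cat and Sod2 are shown because these genes carry the largest regional or muscle differences described below. Each runs 5′ to 3′ on the gene's strand from 250 bases before the start of the gene to 50 after it. Capitals mark the GC box (GGGCGG) and the CCAAT box (CCAAT), searched on both strands. Gpx3 lies at chr11:54902604-54902903 on the plus strand, Cat at chr2:103485104-103485403 on the minus strand and Sod2 at chr17:13007589-13007888 on the plus strand.
Gpx3: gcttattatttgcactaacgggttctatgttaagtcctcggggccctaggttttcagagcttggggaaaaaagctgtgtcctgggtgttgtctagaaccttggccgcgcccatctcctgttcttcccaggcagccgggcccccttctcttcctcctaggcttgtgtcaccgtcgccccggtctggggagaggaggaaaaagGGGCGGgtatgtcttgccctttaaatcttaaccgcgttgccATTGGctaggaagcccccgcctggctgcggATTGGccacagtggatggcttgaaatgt
Cat: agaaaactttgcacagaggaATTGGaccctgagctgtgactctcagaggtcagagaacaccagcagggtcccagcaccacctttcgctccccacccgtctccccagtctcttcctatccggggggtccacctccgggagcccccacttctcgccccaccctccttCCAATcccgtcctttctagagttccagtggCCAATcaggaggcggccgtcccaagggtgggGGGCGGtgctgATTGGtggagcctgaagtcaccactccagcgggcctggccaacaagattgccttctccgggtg
Sod2: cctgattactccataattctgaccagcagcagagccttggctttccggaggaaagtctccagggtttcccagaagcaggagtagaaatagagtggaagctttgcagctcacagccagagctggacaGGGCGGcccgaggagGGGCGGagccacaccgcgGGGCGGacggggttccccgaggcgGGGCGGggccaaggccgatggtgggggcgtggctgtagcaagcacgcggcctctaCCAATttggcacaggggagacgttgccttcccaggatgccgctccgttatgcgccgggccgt
The Sod2 region held 4 GC boxes and 1 CCAAT box, with 64.3% G and C. The Cat region held 1 GC box and 4 CCAAT boxes (62.0% G and C), and the Gpx3 region 1 GC box and 2 CCAAT boxes (56.3% G and C). The 8 genes had 11 regions, 4 of them of Gpx4. A GC box was present in 9 of the 11 regions (7 genes) and a CCAAT box in 7 (5 genes). The Gpx4 regions that start at 80053315 and 80053409 overlap and hold the same GC and CCAAT boxes, so these boxes were counted for both. Among all 32851 regions of this length in the table, 35.7% held a GC box and 37.4% a CCAAT box. An antioxidant response element core (TGACNNNGC) was present for 1 gene, Sod1, starting 56 bases before the start of the gene, and in 12.4% of all regions. A TATA box (TATAAA) was also present only for Sod1 among the 8, and in 13.6% of all regions. No binding was measured, so these matches describe the sequence only.

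The 9 genes differed widely in how much they varied between muscles. Cat spanned 2.25 over the 9 arrays, a 4.75-fold range and a wider one than 98.1% of all genes had. Gpx3 spanned 2.13, a 4.39-fold range and wider than 97.7% of genes. Gpx7 spanned 1.31, Sod2 1.19, Gpx8 1.14, Sod3 0.98 and Sod1 0.77. The steadiest were Gpx1, with a range of 0.56, and Gpx4, with 0.49.

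**Figure D1:**
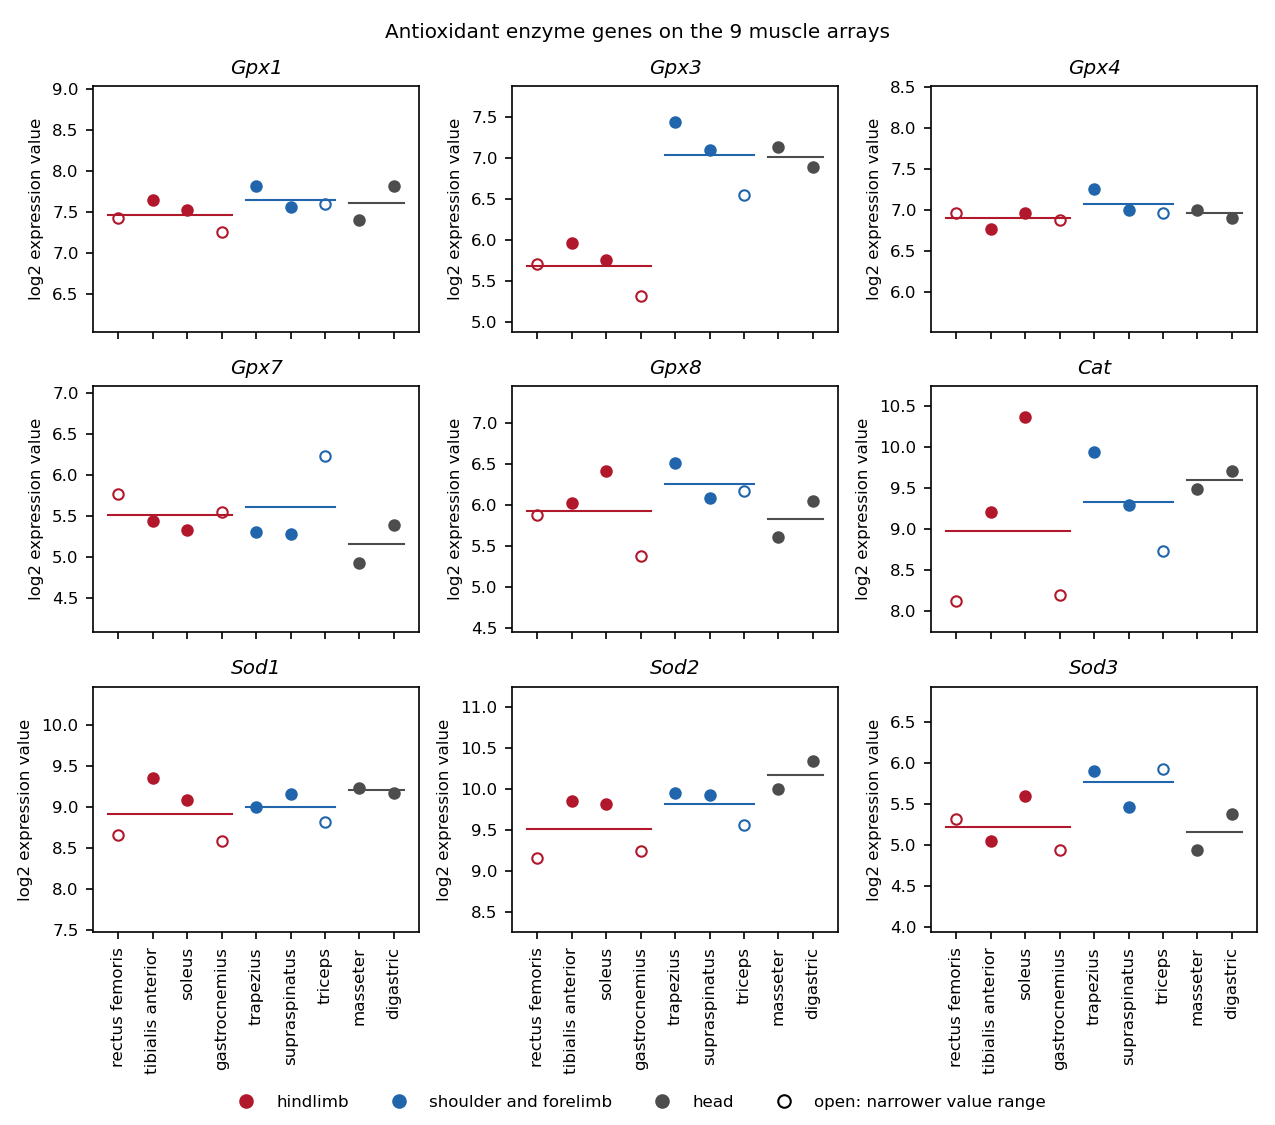
Log2 expression value (vertical axis) of each antioxidant enzyme gene on the 9 muscle arrays (horizontal axis), with horizontal lines at the region means and open circles for the 3 arrays of narrower value range; all panels span the same number of log2 units. Gpx3 shows 4 hindlimb arrays between 5.31 and 5.96 and 5 other arrays between 6.55 and 7.44, and Cat shows its highest point in the soleus at 10.37.

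Among the superoxide dismutases, Sod2 had the widest range and was highest in head muscles. Sod2 stood at 9.15 in rectus femoris, 9.85 in tibialis anterior, 9.81 in soleus and 9.24 in gastrocnemius. It was 9.95 in trapezius, 9.92 in supraspinatus and 9.55 in triceps, and 9.99 in masseter and 10.34 in digastric. The digastric was the highest array, and both head arrays lay above all 7 others. As for Sod1 and Cat below, the 3 lowest values were those of the 3 arrays of narrower range. The mean was 9.51 ± 0.37 (SD, n = 4) in hindlimb, 9.81 ± 0.22 (SD, n = 3) in shoulder and forelimb and 10.17 ± 0.25 (SD, n = 2) in head muscles. Hindlimb muscles differed from head muscles by -0.65 (SE 0.24, 95% interval -1.19 to -0.11), a 1.57-fold lower level with an unadjusted p of 0.0223 and an adjusted p of 0.393 in limma. In the 6 arrays of wider range the difference was -0.33. Shoulder and forelimb muscles differed from head muscles by -0.36 (SE 0.26, adjusted p = 0.782), and by -0.23 in the 6 arrays. Against shoulder and forelimb muscles the hindlimb mean differed by -0.29, and by -0.10 in the 6 arrays. Endothelial markers (Pecam1, Cdh5 and others) summed to 9.48 to 10.66 in hindlimb, 9.74 to 10.03 in shoulder and forelimb and 10.41 to 10.64 in head arrays on the log2 scale. They were negative for 7 of 8 genes in hindlimb minus head (median -0.56) and for 8 of 8 in shoulder and forelimb minus head (median -0.66). Sod2 had r = 0.80 with their mean over 9 arrays and 0.40 in the 6 of wider range, and their part in the Sod2 differences was not tested.

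Sod1 differed little between regions and did not order them in the same way in both sets of arrays. It stood at 8.65 in rectus femoris, 9.35 in tibialis anterior, 9.08 in soleus and 8.58 in gastrocnemius. Values were 8.99 in trapezius, 9.15 in supraspinatus and 8.81 in triceps, and 9.23 in masseter and 9.17 in digastric. The tibialis anterior was the highest array and the gastrocnemius, also a hindlimb muscle, the lowest, while the 3 lowest values were those of the 3 arrays of narrower range. The hindlimb mean of 8.91 ± 0.36 (SD, n = 4) differed from the head mean of 9.20 ± 0.04 (SD, n = 2) by -0.29 (SE 0.23, adjusted p = 0.611), and by 0.01 in the 6 arrays of wider range. The shoulder and forelimb mean of 8.99 ± 0.17 (SD, n = 3) differed from the head mean by -0.22 (SE 0.24, adjusted p = 0.851).

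Sod3 was highest in shoulder and forelimb muscles. It stood at 5.31 in rectus femoris, 5.04 in tibialis anterior, 5.60 in soleus and 4.94 in gastrocnemius. The shoulder and forelimb arrays gave 5.90 in trapezius, 5.46 in supraspinatus and 5.92 in triceps, and the head arrays 4.94 in masseter and 5.38 in digastric. Every shoulder and forelimb array lay above both head arrays, whereas hindlimb and head arrays overlapped. The shoulder and forelimb mean of 5.76 ± 0.26 (SD, n = 3) exceeded the head mean of 5.16 ± 0.31 (SD, n = 2) by 0.60 (SE 0.25, 95% interval 0.06 to 1.15), a 1.52-fold difference with an unadjusted p of 0.0332 and an adjusted p of 0.718. It was 0.52 in the 6 arrays of wider range. The hindlimb mean of 5.22 ± 0.30 (SD, n = 4) lay 0.07 above the head mean (SE 0.23, adjusted p = 0.927) and differed from the shoulder and forelimb mean by -0.54. Macrophage markers were higher in the shoulder and forelimb than in the head mean for 8 of 8 genes (median difference 0.89), and their summed level on the log2 scale was 9.17 to 9.98 in shoulder and forelimb arrays and 8.34 to 8.82 in head arrays. White adipocyte markers were higher in the shoulder and forelimb mean for 7 of 7 genes (median difference 1.24) and fibroblast markers for 7 of 7 (0.37). The part of these cells in the Sod3 difference was not tested.

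Cat varied more within hindlimb muscles than between regions. Its value was 10.37 in soleus, 9.21 in tibialis anterior, 8.20 in gastrocnemius and 8.12 in rectus femoris. It was 9.94 in trapezius, 9.30 in supraspinatus and 8.74 in triceps, and 9.49 in masseter and 9.71 in digastric. The soleus, a slow postural muscle, was 0.43 above the next array, the trapezius, and 1.86 (3.63-fold) above the mean of the other 3 hindlimb muscles. The 3 lowest values of Cat were those of the 3 arrays of narrower range. The hindlimb mean was 8.98 ± 1.05 (SD, n = 4), the shoulder and forelimb mean 9.33 ± 0.60 (SD, n = 3) and the head mean 9.60 ± 0.16 (SD, n = 2). Hindlimb minus head came to -0.63 (SE 0.56, 95% interval -1.86 to 0.61, adjusted p = 0.655) and shoulder and forelimb minus head to -0.27 (SE 0.59, adjusted p = 0.928). With the 6 arrays of wider range alone these differences were 0.19 and 0.02. Hindlimb minus shoulder and forelimb was -0.35 over all 9 arrays, 0.17 in the 6 arrays of wider range and -0.58 in the 3 of narrower range, so the direction of the Cat difference depended on which arrays were used.

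Gpx3 had the largest regional difference of the 9 genes. Its hindlimb values were 5.70 in rectus femoris, 5.96 in tibialis anterior, 5.75 in soleus and 5.31 in gastrocnemius. Shoulder and forelimb values were 7.44 in trapezius, 7.10 in supraspinatus and 6.55 in triceps, and head values were 7.13 in masseter and 6.89 in digastric. All 4 hindlimb arrays lay below all 5 other arrays, with 0.59 between the tibialis anterior and the triceps. Every hindlimb array was below every other array for 191 genes (0.861% of those measured), and Gpx3 was the only one of them with a gap of at least 0.59. The rule that picked the gene used much of this separation, which is therefore described and not tested. The mean was 5.68 ± 0.27 (SD, n = 4) in hindlimb, 7.03 ± 0.45 (SD, n = 3) in shoulder and forelimb and 7.01 ± 0.17 (SD, n = 2) in head muscles.

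Hindlimb minus shoulder and forelimb, the contrast by which Gpx3 was picked, was -1.35 for Gpx3, a 2.55-fold lower level. It was -1.41 in the 6 arrays of wider range and -1.05 in the 3 of narrower range. Over all arrays 8 of the 22180 genes had a more negative difference. That rank was largely set by the choice of the gene and tests nothing. Against head muscles, which the rule did not name, hindlimb Gpx3 differed by -1.33 (SE 0.26, 95% interval -1.90 to -0.76), a 2.51-fold lower level. The unadjusted p was 0.000359 and the adjusted p 0.241, so the difference did not pass over all genes, and it uses the same hindlimb arrays as the contrast that picked the gene. In the 6 arrays of wider range the difference was -1.15. Shoulder and forelimb minus head was 0.02 (SE 0.27, 95% interval -0.58 to 0.62, adjusted p = 0.988). White adipocyte markers, of which 7 were measured and Lep averaged under the array median, summed to 8.31 to 9.52 in hindlimb, 8.69 to 11.11 in shoulder and forelimb and 9.18 to 9.20 in head arrays on the log2 scale. Hindlimb minus shoulder and forelimb was negative for 6 of the 7 markers (median -0.84), with a median of 0.06 in the 3 arrays of narrower range. Hindlimb minus head was negative for 2 of 7 (median 0.23). Brown adipocyte markers summed to 9.82 to 11.29 in hindlimb, 10.33 to 11.47 in shoulder and forelimb and 11.05 to 11.31 in head arrays, with Ucp1 at 9.36 in the trapezius, 5.10 in the supraspinatus and at most 2.72 elsewhere. All 5 brown adipocyte markers had a negative difference in both hindlimb contrasts, with medians of -0.72 and -0.23, and Elovl3 averaged under the array median. Against shoulder and forelimb muscles the largest were Ucp1 (-3.25) and Cidea (-2.32), and against head muscles Cox7a1 (-0.69) and Ppargc1a (-0.67). Outside the trapezius and supraspinatus Ucp1 was under the array median, so its sign against head muscles cannot be told from background. The summed levels of the head, hindlimb and triceps arrays, with Ucp1 at most 2.72, are therefore not a measure of brown adipocytes. The part of these cells in the Gpx3 values was not tested.

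**Figure D2:**
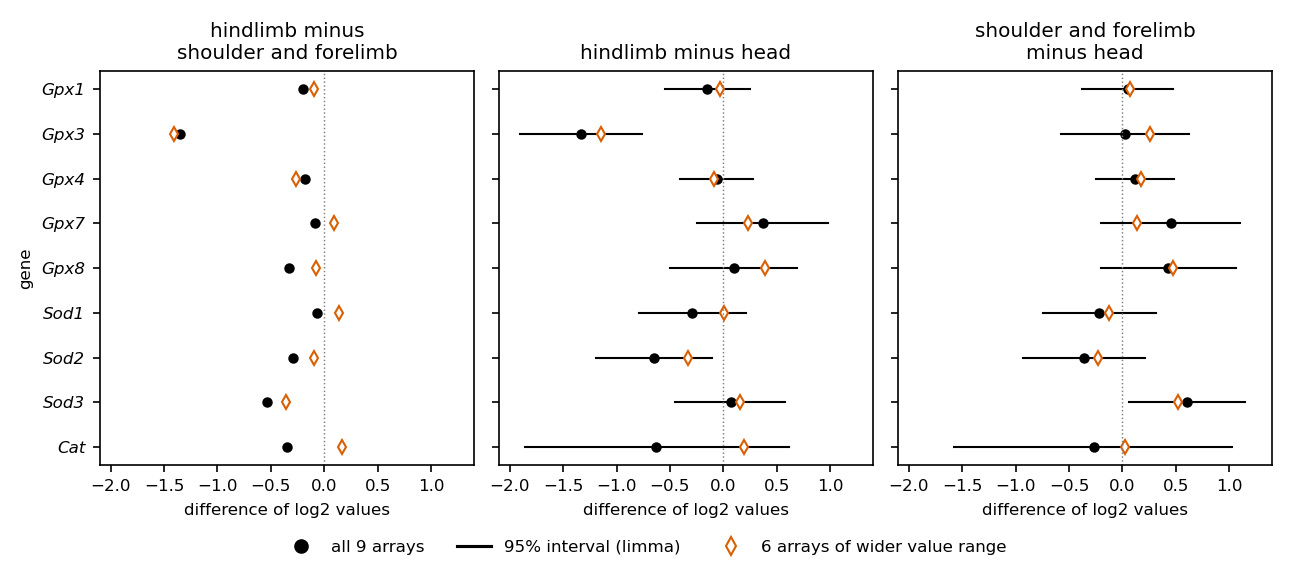
Differences of mean log2 values between regions (horizontal axis) for the 9 genes (vertical axis) in the 3 contrasts, with filled circles for all 9 arrays, lines for the 95% interval from limma where a test was made, and open diamonds for the 6 arrays of wider value range. Gpx3 stands near -1.35 and -1.33 in both hindlimb contrasts and at 0.02 between shoulder and forelimb and head muscles.

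The selenium-containing enzymes Gpx1 and Gpx4 differed little. Gpx1 stood at 7.42 in rectus femoris, 7.64 in tibialis anterior, 7.52 in soleus and 7.25 in gastrocnemius, at 7.81 in trapezius, 7.56 in supraspinatus and 7.60 in triceps, and at 7.40 in masseter and 7.82 in digastric. The lowest array was a hindlimb one, yet the 2 head arrays spanned most of the range. Hindlimb muscles, at 7.46 ± 0.17 (SD, n = 4), differed from head muscles, at 7.61 ± 0.30 (SD, n = 2), by -0.15 (SE 0.18, adjusted p = 0.749). Gpx4 stood at 6.96 in rectus femoris, 6.77 in tibialis anterior, 6.97 in soleus and 6.88 in gastrocnemius, at 7.26 in trapezius, 7.0 in supraspinatus and 6.96 in triceps, and at 7.0 in masseter and 6.91 in digastric. Only the trapezius stood apart, 0.26 above the next array. The Gpx4 means were 6.90 ± 0.09 (SD, n = 4) in hindlimb, 7.07 ± 0.16 (SD, n = 3) in shoulder and forelimb and 6.96 ± 0.06 (SD, n = 2) in head muscles. Hindlimb minus head was -0.06 for Gpx4 (SE 0.16, adjusted p = 0.89) and shoulder and forelimb minus head 0.12 (adjusted p = 0.883).

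The endoplasmic reticulum enzymes Gpx7 and Gpx8 had different high muscles. Gpx7 was 5.77 in rectus femoris, 5.44 in tibialis anterior, 5.33 in soleus and 5.55 in gastrocnemius. It was 5.31 in trapezius, 5.28 in supraspinatus and 6.24 in triceps, and 4.93 in masseter and 5.39 in digastric. The triceps stood 0.47 above the next array, and the 3 highest values were those of the 3 arrays of narrower range, the opposite of Sod1, Sod2 and Cat. Gpx7 averaged 5.52 ± 0.19 (SD, n = 4) in hindlimb and 5.16 ± 0.32 (SD, n = 2) in head muscles, a difference of 0.37 (SE 0.28, adjusted p = 0.599). Shoulder and forelimb muscles, at 5.61 ± 0.55 (SD, n = 3), differed from head muscles by 0.45 (SE 0.29, adjusted p = 0.759), and by 0.14 in the 6 arrays of wider range.

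Gpx8 was 5.88 in rectus femoris, 6.03 in tibialis anterior, 6.42 in soleus and 5.38 in gastrocnemius. It was 6.52 in trapezius, 6.09 in supraspinatus and 6.17 in triceps, and 5.61 in masseter and 6.05 in digastric. Shoulder and forelimb arrays all lay above both head arrays, and hindlimb arrays spread across the whole of the head range. The shoulder and forelimb mean of 6.26 ± 0.23 (SD, n = 3) exceeded the head mean of 5.83 ± 0.31 (SD, n = 2) by 0.43 (SE 0.28, adjusted p = 0.766), and the hindlimb mean of 5.93 ± 0.43 (SD, n = 4) exceeded it by 0.10 (SE 0.27, adjusted p = 0.903). The other members of the family, Gpx2 of epithelia and Gpx5 and Gpx6, averaged 2.08 to 3.04 per array as a group, against array medians of 3.34 to 3.44, and were not read further.

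Neighbouring arrays in the order of each gene were mostly closer than the spread within regions. Gpx3, with a pooled SD within regions of 0.33, ran trapezius, masseter, supraspinatus, digastric, triceps, tibialis anterior, soleus, rectus femoris and gastrocnemius from high to low, and 3 of its 8 steps exceeded that SD. Sod2 (pooled SD 0.31) had 2 such steps, of which the largest, 0.35, was between digastric and masseter. Gpx4, Gpx7 and Sod3 had 1 each, and Gpx1, Gpx8, Sod1 and Cat none, although Cat had a pooled SD of 0.82.

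Counted over the 9 genes, none passed the threshold of adjusted p 0.05 in either contrast with head muscles. Over all 22180 genes 0.00902% passed for hindlimb against head muscles (2 genes). None did, 0.0%, when shoulder and forelimb muscles were set against head muscles, where 1534 genes had an unadjusted p below 0.05. An unadjusted p below 0.05 was reached by 2 of the 9 genes, Gpx3 and Sod2, for hindlimb against head muscles, where 11.9% of all genes did so. It was reached by 1 of 9, Sod3, for shoulder and forelimb against head muscles, against 6.92% of all genes. The 2 contrasts share the head arrays. Gpx3 was picked by its low hindlimb values, so its place in the hindlimb counts of this paragraph was partly set by that choice. Hindlimb arrays lay wholly below head arrays for 2 of the 9 genes (Gpx3 and Sod2) and for 9.78% of all genes, and wholly above for 0 of 9 and 11.4% of all genes. Shoulder and forelimb arrays lay wholly below head arrays for Sod1 and Sod2 (2 of 9, against 14.7% of all genes) and wholly above for Gpx8 and Sod3 (2 of 9, against 15.2%). None of these shares was tested.

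The hindlimb mean was below the shoulder and forelimb mean for all 9 genes, where 51.8% of all genes had a negative difference. The median difference was -0.29 for the 9 genes and -0.01 for all genes. The count was 6 of 9 in the 6 arrays of wider range, with a median of -0.10. It was 9 of 9 in the 3 of narrower range, where the shoulder and forelimb side is the triceps alone. Hindlimb arrays lay wholly below shoulder and forelimb arrays for Gpx3 alone among the 9, the gene picked by this contrast, and for 2.3% of all genes. They lay wholly above for 0 of 9 and 2.32% of all genes. Differences not yet given were -0.20 for Gpx1, -0.18 for Gpx4, -0.09 for Gpx7, -0.33 for Gpx8 and -0.07 for Sod1. In the 6 arrays of wider range Gpx7 (0.09), Sod1 (0.14) and Cat (0.17) had the positive differences. For hindlimb minus head 6 of the 9 differences were negative, against 45.0% of all genes. Their median was -0.15, against 0.04 over all genes, and it was 0.01 in the 6 arrays of wider range. For shoulder and forelimb minus head 3 of the 9 were negative, against 44.5% of all genes, with a median of 0.05, against 0.04.

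Correlations across the 9 arrays describe which genes followed each other. All points share the arrays' normalization and, for 3 of them, the narrower range of values, and 198 correlations of members with gene list means or array spread were computed, and 36 between members. Sod2 followed the mean of 22 respiratory chain and citrate cycle genes with r = 0.98 (Spearman 0.88, n = 9). Without the 2 arrays farthest from the median of that mean r was 0.93, and it was 0.86 in the 6 arrays of wider range. Sod1 followed the same mean with r = 0.87, and Cat with r = 0.85, but in the 6 arrays of wider range these were 0.10 and 0.14. Gpx3 had r = 0.62 with it over all arrays and 0.12 in the 6 of wider range. The part of mitochondrial content in any of these values was not tested.

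**Figure D3:**
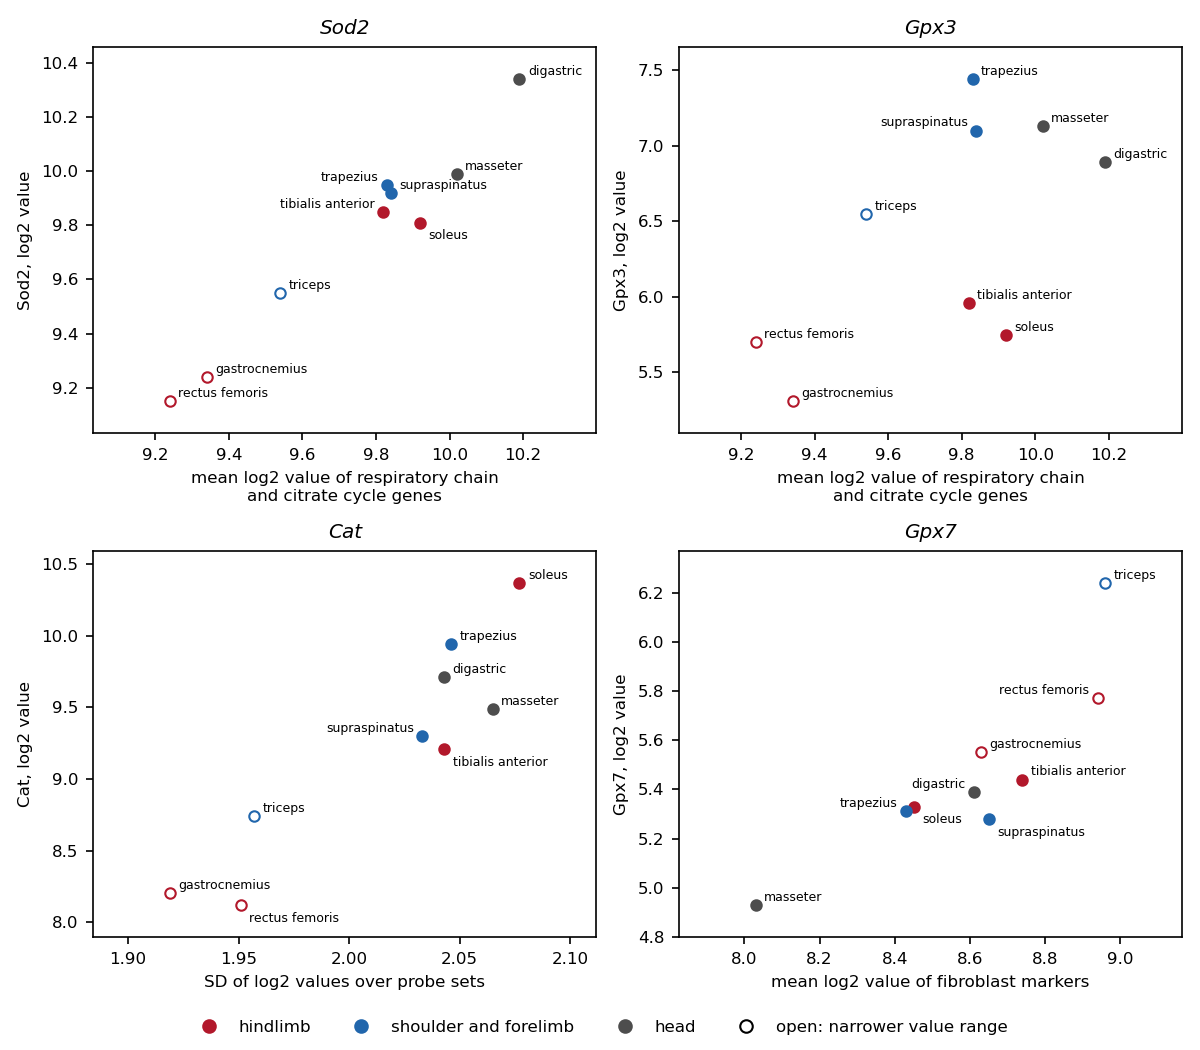
Log2 value of Sod2 and Gpx3 against the mean log2 value of 22 respiratory chain and citrate cycle genes, of Cat against the SD of each array's log2 values over probe sets, and of Gpx7 against the mean log2 value of fibroblast markers, 1 point per muscle array, with open circles for the 3 arrays of narrower range. Sod2 is high where the mitochondrial genes are high in all regions (r = 0.98), and Gpx3 has r = 0.62 with the same mean.

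Cat followed the SD of each array over its probe sets, a measure of value range, with r = 0.92 (Spearman 0.90), and with r = 0.68 in the 6 arrays of wider range. Sod1 did so with r = 0.89 over all arrays and -0.17 in the 6, and Sod2 with r = 0.83 and -0.31. With the mean of 13 glutathione transferase genes Cat had r = 0.94 over all arrays (Spearman 0.95) and 0.90 in the 6 of wider range. With slow fibre markers Cat had r = 0.51 over all arrays and 0.90 in the 6 of wider range. The latter r turned to -0.52 over the 7 arrays left without the 2 farthest in slow fibre markers. Gpx7 followed fibroblast markers (Col1a1, Pdgfra, Dcn and others) with r = 0.87, and with 0.92 in the 6 arrays of wider range. It followed macrophage markers with r = 0.87 too, and with 0.61 in the 6 arrays. Without the triceps and masseter, the 2 arrays farthest in either marker list, r was 0.81 for fibroblast and 0.23 for macrophage markers. Gpx7, fibroblast markers and macrophage markers were all highest in triceps and lowest in masseter. The summed level of the fibroblast markers was 11.98 to 12.34 in hindlimb, 11.71 to 12.35 in shoulder and forelimb and 11.39 to 12.00 in head arrays, and the part of either marker list in the Gpx7 values was not tested. Sod3 followed macrophage markers (Cd68, Csf1r and others) with r = 0.78, with 0.90 in the 6 arrays and with 0.60 without the triceps and masseter. That list was not the one it followed most closely. Sod3 had r = 0.92 with metal supply and metallothionein genes, and 0.91 in the 6 arrays. With genes for sources of superoxide and peroxide it had 0.83 and 0.82, and with glutathione synthesis and recycling genes 0.77 and 0.86. Sod3 and Gpx8 followed each other with r = 0.84, and with 0.91 in the 6 arrays. Gpx4 followed white adipocyte markers with r = 0.88, which was 0.39 without the 2 arrays farthest in those markers. Gpx3 had r = 0.82 with the mean of 20 peroxisome genes and 0.81 in the 6 arrays of wider range. Without the rectus femoris and gastrocnemius, the 2 arrays farthest in that mean, r was 0.64. Over all arrays the same mean had r = 0.92 with Sod2, 0.85 with Cat, 0.76 with Gpx1 and 0.75 with Sod1. In the 6 arrays these were 0.49, 0.18, 0.68 and -0.67.

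The genes most like 4 of the members were sought among 1422 genes (1423 for Gpx1) with a mean of at least 6 and a range of at least 1, so that a high r is partly the product of the choice. Nearest to Sod2 were Hspa9, the mitochondrial HSP70 chaperone (r = 0.989), Dusp22, a phosphatase (0.988), and Ndufa9, a complex I subunit (0.979). Hspa9 had 9.29, 10.19, 9.95 and 9.26 in rectus femoris, tibialis anterior, soleus and gastrocnemius, 10.25, 10.14 and 9.68 in trapezius, supraspinatus and triceps, and 10.28 and 10.61 in masseter and digastric. As for Sod2, the digastric was highest and the rectus femoris and gastrocnemius were lowest. Nearest to Cat were Prxl2a (r = 0.99), Ccni (0.982) and Eci1, an isomerase of fatty acid oxidation (0.974). Eci1 was 8.67 in soleus and 7.03 in rectus femoris, its highest and lowest arrays, as for Cat. Nearest to Gpx1 were Mustn1 (0.921), Gstm2, a glutathione transferase (0.907), and Lipa, the lysosomal acid lipase (0.897). The likeness to Gpx3 was lower, with Slc25a42, a mitochondrial carrier (0.892), Cyb5a, cytochrome b5 (0.89), and Fzd4, a Wnt and norrin receptor (0.89). Slc25a42 had 6.36, 6.38, 6.65 and 6.50 in rectus femoris, tibialis anterior, soleus and gastrocnemius, 7.48, 7.07 and 6.87 in trapezius, supraspinatus and triceps, and 6.90 and 7.01 in masseter and digastric. Its hindlimb arrays were also all below the others, with a range of 1.12 against 2.13 for Gpx3.

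Around the 9 enzymes, 8 lists of genes for glutathione, thioredoxin, selenium, metals, peroxisomes and sources of peroxide held 117 measured genes, and none of them passed the adjusted threshold in any of the 3 contrasts. Over all genes 0.00451% passed for hindlimb against shoulder and forelimb muscles (1 gene). For hindlimb minus head, 77 of the 117 differences were negative, where 45.0% of all genes had a negative difference. The median of the 117 was -0.13, and -0.06 in the 6 arrays of wider range. An unadjusted p below 0.05 was reached by 13 (11.1%, close to the 11.9% of all genes), and hindlimb arrays lay wholly below head arrays for 21 (17.9%, against 9.78% of all genes) and wholly above for 9 (7.69%, against 11.4%). For hindlimb minus shoulder and forelimb, 90 of the 117 were negative, with a median of -0.12 (-0.08 in the 6 arrays), 7 reached an unadjusted p below 0.05 (5.98%, against 3.65% of all genes), and arrays lay wholly below for 10 (8.55%, against 2.3% of all genes) and wholly above for 0 (against 2.32%). For shoulder and forelimb minus head, 61 of the 117 were negative, against 44.5% of all genes. An unadjusted p below 0.05 was reached by 7 of the 117 (5.98%, against 6.92% of all genes). Arrays lay wholly below for 21 (17.9%, against 14.7%) and wholly above for 14 (12.0%, against 15.2%).

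**Figure D4:**
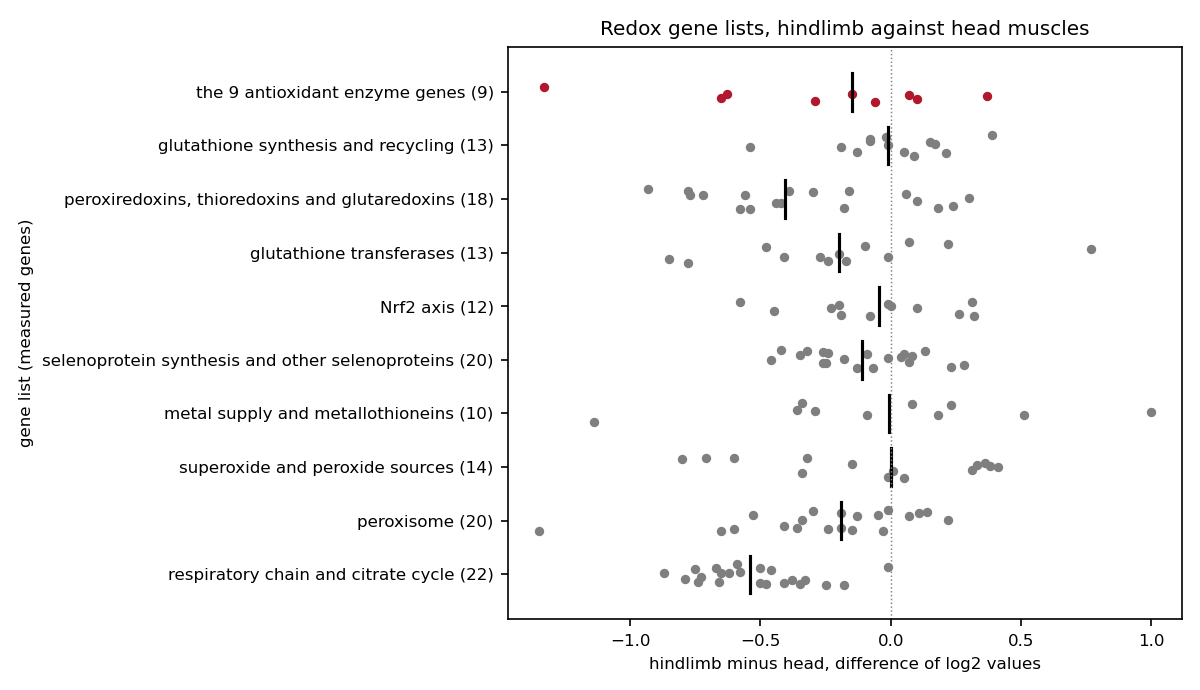
Difference of mean log2 values, hindlimb minus head (horizontal axis), for each measured gene of the redox gene lists (vertical axis, number of genes in brackets), with a vertical bar at the median of each list; points are spread vertically only to be seen apart. The respiratory chain and citrate cycle list lies wholly below 0 with a median of -0.54, and Gpx3 is the leftmost of the 9 antioxidant enzyme genes.

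Of 18 peroxiredoxin, thioredoxin and glutaredoxin genes, 13 had a negative hindlimb minus head difference, with a median of -0.40 (-0.20 in the 6 arrays of wider range), and hindlimb arrays lay wholly below head arrays for 6 and wholly above for 1, Sesn2 (0.30, adjusted p = 0.482). Over all genes 9.78% lay wholly below. Among the 6 were Txn1, cytosolic thioredoxin (-0.78, adjusted p = 0.36), Txnrd1, its reductase (-0.58, adjusted p = 0.367), and Sesn1, a sestrin (-0.93, adjusted p = 0.307). Prdx3, the mitochondrial peroxiredoxin, chosen after its values were seen, had 8.38 ± 0.38 (SD, n = 4) in hindlimb and 9.10 ± 0.14 (SD, n = 2) in head muscles, a difference of -0.72 (SE 0.25, adjusted p = 0.381). The respiratory chain and citrate cycle genes had 22 of 22 negative differences, with a median of -0.54, -0.21 in the 6 arrays of wider range, and 0 passed. Ndufs1, a complex I subunit, differed by -0.87 (SE 0.27, adjusted p = 0.381).

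Glutathione synthesis and recycling genes were split, with 7 of 13 negative for hindlimb minus head. Their median was -0.01, and 0.11 in the 6 arrays of wider range. The glutathione-degrading enzyme gene Chac2 differed by -0.54 (SE 0.18, adjusted p = 0.381) from head muscles and by -0.51 from shoulder and forelimb muscles. Glutathione transferases had 10 of 13 negative and a median of -0.20 (-0.17 in the 6 arrays of wider range). Mgst3 differed by -0.85 (adjusted p = 0.381) and Mgst1 by 0.77 (adjusted p = 0.401). Of 12 genes of the Nrf2 axis, the stress response that acts through antioxidant response elements, 8 were negative. The median of this list was -0.04, and 0.04 in the 6 arrays of wider range. Nfe2l2, which encodes Nrf2, differed by -0.45 (adjusted p = 0.482). Of 20 genes of selenoprotein synthesis and other selenoproteins, 13 were negative with a median of -0.11 (0.0 in the 6 arrays of wider range). Selenop, the plasma selenium carrier, was 5.05 ± 0.10 (SD, n = 4) in hindlimb and 5.51 ± 0.14 (SD, n = 3) in shoulder and forelimb muscles, a difference of -0.46 (SE 0.14), and its arrays did not overlap between these groups.

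Genes of metal supply were also split, with 5 of 10 negative for hindlimb minus head. Slc25a37, mitoferrin, which brings iron into mitochondria, had 5.64, 5.95, 5.83 and 5.61 in rectus femoris, tibialis anterior, soleus and gastrocnemius, 6.46, 6.48 and 6.06 in trapezius, supraspinatus and triceps, and 6.93 and 6.87 in masseter and digastric. All hindlimb arrays were the lowest and both head arrays the highest, a hindlimb minus head difference of -1.14 (SE 0.18, unadjusted p = 6.97e-05, adjusted p = 0.198). Mt2, a metallothionein, differed by 1.0 (SE 0.47, adjusted p = 0.426). Among sources of superoxide and peroxide 7 of 14 were negative, with Xdh, xanthine dehydrogenase, at -0.80 (SE 0.16, adjusted p = 0.255) and Cybb, the phagocyte oxidase subunit, at -0.71 (adjusted p = 0.395). On the positive side were the oxidase genes Duox1 at 0.41 (adjusted p = 0.512) and Cyba, the partner subunit of Cybb, at 0.38 (adjusted p = 0.543). Duox1 averaged under the array median, where values cannot be told from background. Of 20 peroxisome genes 16 were negative, with a median of -0.19 (-0.05 in the 6 arrays of wider range). Abcd2, a peroxisomal fatty acid transporter, differed by -1.35 (SE 0.35, adjusted p = 0.36) and had 6.01 in soleus, its lowest array.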

How the data were processed

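Each of 9 muscles was measured on a GeneChip Mouse Gene 2.0 ST array. The authors deposited log2 values per probe set, and the submitters' processing notes name GCRMA without a version, a method that normalizes arrays together after a sequence-based background correction and can compress differences near background. The log2 scale was read from the range of the values. Of 41345 probe sets, 23521 named 1 gene. For 1082 genes with more than 1 of these the highest mean was used, leaving 22180 genes. A mean per region was fitted to all 9 arrays in limma 3.58.1 (R 4.3.3, lmFit and eBayes, 6 residual degrees of freedom, 10.4 after moderation). Tests were two-sided, with Benjamini-Hochberg adjustment over all genes of a contrast and a threshold of 0.05. Every p comes from limma. The procedure was tested on simulated data with independent noise for each gene and array. That simulation held no arrays of narrower value range, so it does not bear on their effect here.

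The number of arrays limits the precision. The members and the gene lists were chosen with earlier results of these data known. Of 242 list entries, 23 were not measured, and of 7 erythroid markers 1 was. Besides the 9 genes, named genes were, per list and contrast, up to 2 with the largest difference in each direction, for 4 members the 3 genes with the highest correlation, and cell type markers. Exceptions are said where they occur. The alternatives covered the normalization (median centring, quantile), dim genes left out, the mean over a gene's probe sets, a robust fit with a variance trend, a fit of the compared groups alone, the trapezius among head muscles, covariates for slow fibres and for value range, the 6 arrays of wider range, and each array left out in turn. A respiratory chain covariate and the 3 arrays of narrower range alone were added after seeing the data. Promoters are credited to RefSeq, build GRCm38.p6.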

Additional observations from a re-analysis of the deposited data

How the results depend on the processing

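None of the 9 genes passed the adjusted threshold in either contrast with head muscles, and none did under any of the 20 alternatives run for each. Without one array in turn the number of genes called for hindlimb against head muscles ran from 0 (without the masseter) to 19 (without the soleus), with 4 without the digastric, against 2 in all arrays. It was 1 under median centring, a robust fit with variance trend, a fit of the compared groups alone, the trapezius among head muscles, a value range term and the 6 arrays of wider range, and 4 with the slow fibre covariate. For shoulder and forelimb against head muscles it was 0, and 0 to 4 without one array, the 4 without the digastric. Between hindlimb and shoulder and forelimb muscles 1 gene was called under all 20. Gpx3, hindlimb minus head, ran from -1.47 to -0.97 over the alternatives, with adjusted p from 0.117 to 0.828, and hindlimb minus shoulder and forelimb from -1.59 to -1.05. Sod2, hindlimb minus head, ran from -0.83 to -0.06, with adjusted p from 0.189 to 0.986, and was -0.06 with the respiratory chain covariate.

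Directions turned for 7 genes in hindlimb minus head and 6 in shoulder and forelimb minus head, and the cause was not tested. For hindlimb minus head, Sod3 was -0.02 under median centring, -0.18 with the trapezius among head muscles, -0.12 with the slow fibre covariate and -0.15 to 0.28 without one array. Gpx8 was -0.13, -0.11 and -0.12 to 0.31 with the trapezius among head muscles, with the slow fibre covariate and without one array. Gpx1 was 0.06 after quantile normalization, 0.07 with the respiratory chain covariate and -0.36 to 0.06 without one array, and Gpx4 was 0.14 after quantile normalization. Cat was 0.04 with a value range term, 0.19 in the 6 arrays of wider range and 0.85 with the respiratory chain covariate. Sod1 was 0.01 in the 6 arrays and 0.18 with the respiratory chain covariate, and Gpx7 was -0.03 with that covariate. For shoulder and forelimb minus head, median centring gave -0.01 for Gpx1 and -0.03 for Gpx3, and the trapezius among head muscles gave -0.09 for Gpx1, -0.33 for Gpx3 and -0.08 for Gpx4. Without one array Gpx1 ran from -0.16 to 0.26, Gpx3 from -0.18 to 0.26 and Cat from -0.58 to 0.02. Cat was 0.17 with a value range term, 0.02 in the 6 arrays and 0.76 with the respiratory chain covariate, under which Sod1 was 0.11 and Sod2 0.05.

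No paired analysis was possible because the labels carry no replicate numbers and each array is a different muscle. Head muscles rest on 2 arrays, animals cannot be told from muscles, and values near the array median cannot be told from background.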
